A study of Mus musculus with 3 samples.

Results

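The replicate 1-only peaks are the ERα peaks of the first ChIP-seq replicate that overlapped no peak of the second replicate by at least 1 bp. They were chosen by comparing both peak lists on chromosomes 1 to 19 and X, and they numbered 3368 of the 9598 replicate 1 peaks there (35.1%). ERα ChIP-seq had been performed on mammary glands of wild-type BALB/c mice. Their ovaries were removed at 6 weeks, and after 10 days of rest the mice received 100 ng 17β-estradiol for 2 h. Each of the 2 ERα libraries was prepared from pooled glands with the same Santa Cruz antibody, and both were set against 1 input library. No vehicle-treated ChIP-seq library was among the samples, so the peaks describe occupancy after estradiol and not a change with estradiol. The lists hold positions and scores but no reads, and the depth behind a peak is unknown from them. The paper reports read totals of each library, which were not used here. The score of a peak is -10 log10 of the p-value that MACS gave it, and the cutoff of 1e-08 corresponds to a score of 80.

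ERα is a nuclear receptor that binds DNA as a dimer after activation by estradiol. Its preferred sequence, the estrogen response element (ERE), is a pair of inverted GGTCA half-sites, and the receptor can also be recruited through other DNA-bound factors such as AP1. In the mammary gland ERα is found in a subset of luminal epithelial cells and in stromal cells, where it controls proliferation through paracrine signals. Many promoters of widely expressed genes lie in CpG islands, stretches rich in G, C and the CpG dinucleotide that often carry GC boxes bound by SP1-type factors.

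The following sequences show the ERE without mismatch in replicate 1-only peaks, since the ERE is the element that the antibody target recognises directly. They come from the highest-scoring replicate 1-only peaks with such an element, are written on the plus strand of NCBIM37 (the assembly of mm9), and carry 10 flanking bases on each side of the element, which is in capitals. The sites near Srxn1, Sema4a, Flt1 and Nfe2l2 lie in introns of these genes, and the site upstream of Capn8 is intergenic.
Capn8, chr1:184493976-184494008: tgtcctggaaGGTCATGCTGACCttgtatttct
Srxn1, chr2:151933634-151933666: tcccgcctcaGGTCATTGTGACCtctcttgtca
Sema4a, chr3:88258398-88258430: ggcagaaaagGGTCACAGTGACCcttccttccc
Flt1, chr5:148430723-148430755: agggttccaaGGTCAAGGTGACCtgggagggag
Nfe2l2, chr2:75522442-75522474: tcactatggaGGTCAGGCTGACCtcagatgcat

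The next sequences show CpG-rich promoter sequence, found under 209 of the 3368 peaks (6.21%) and shown because its share differed from that of shared peaks. Most replicate 1-only peaks (2958) were neither in a promoter nor CpG-rich, and 487 of these held an ERE with up to 1 mismatch. Each is the 80 bases at the midpoint of a replicate 1-only peak, on the plus strand of NCBIM37, with every CpG dinucleotide in capitals. They are the highest-scoring such peaks in which these 80 bases overlap no annotated exon, a choice made after the composition of the peaks was known. None of their 400 bp windows held an ERE with up to 1 mismatch.
Zfp768, chr7:134489028-134489107: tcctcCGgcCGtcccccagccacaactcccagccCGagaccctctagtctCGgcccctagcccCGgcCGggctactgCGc
Brp44l, chr17:8477022-8477101: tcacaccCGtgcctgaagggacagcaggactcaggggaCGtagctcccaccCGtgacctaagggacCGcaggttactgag
Fosl2, chr5:32438053-32438132: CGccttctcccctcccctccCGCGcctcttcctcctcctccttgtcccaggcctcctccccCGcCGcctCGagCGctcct
Arrdc3, chr13:81025241-81025320: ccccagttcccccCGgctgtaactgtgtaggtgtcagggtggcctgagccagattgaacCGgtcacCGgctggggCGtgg

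Replicate 1-only peaks had low scores, with a median of 105 (quartiles 90.6 and 128) against 246 (152 and 474) for all 6230 shared replicate 1 peaks. Sharing and score are both products of peak calling, so these values describe how the peaks were chosen and were not tested. Of the 3368 peaks, 67.9% scored below 120, 1933 scored at least 100, 133 at least 200 and 7 at least 300. The unshared fraction of replicate 1 peaks was 79.8% in the score bin from 80 to 90, 47.7% from 120 to 150 and 0.275% from 300 upward. The median width of replicate 1-only peaks was 482 bp and that of shared peaks 581 bp, but within a score bin the widths were close, for example 511 bp and 514 bp between scores of 120 and 150. A single replicate 1-only peak stood far above the others at a score of 3100, a value held by 17 replicate 1 peaks, and the next scored 383.

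**Figure D1:**
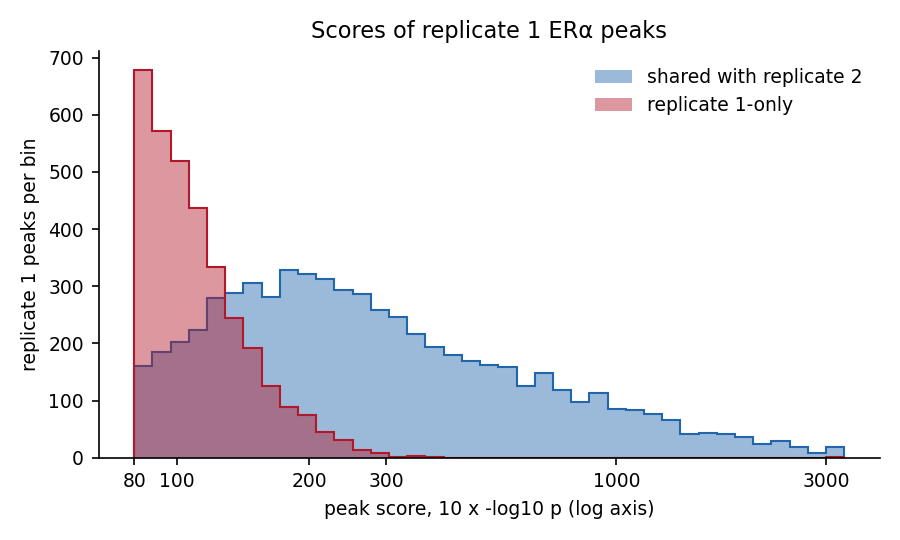
Number of replicate 1 peaks (y axis) by peak score (x axis, log scale, -10 log10 of the p-value) for replicate 1-only peaks (red) and peaks shared with replicate 2 (blue). The replicate 1-only peaks crowd near the cutoff of 80, with a median of 105, and 1 of them lies at 3100.

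The rule separated some peaks by a few bases. The replicate 1-only peaks with the smallest gap to a replicate 2 peak lay in an intron of Zmiz1 (gap 1 bp, score 93.75), in an intron of Bank1 (12 bp, score 119) and between genes with Olfr541 nearest (17 bp, score 81.3). The shared peaks with the smallest overlap were intergenic with Xkr5 nearest (4 bp, score 119), intergenic with Dctn6 nearest (29 bp, score 117) and in an intron of Lgr6 (38 bp, score 85.7). Only 104 of the 3368 peaks (3.09%) lay within 500 bp of a replicate 2 peak, and 188 (5.58%) lay within 1 kb.

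Position and sequence were not used to choose the peaks and were compared with the 6228 shared replicate 1 peaks whose scores fell in the same range, from 80.02 to 3100. A peak was assigned to a promoter when its midpoint lay between 1 kb upstream and 400 bp downstream of the nearest transcription start site (TSS) of a protein-coding gene. Of the replicate 1-only peaks, 352 (10.5%, exact 95% interval 9.44% to 11.5%) lay in a promoter, against 344 (5.52%, 4.97% to 6.12%) of the shared peaks. The difference of 4.93 percentage points (3.77 to 6.13) gave an odds ratio of 2.00 (two-sided Fisher's exact test, Benjamini-Hochberg adjusted p = 1.58e-17 over 17 measures). With shares compared inside 7 score bins, the Mantel-Haenszel odds ratio was 1.84 (1.49 to 2.27). Peaks of 1 library are not replicates, so this and the following tests compare these peaks and not animals, and the intervals cover counting error only.

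The excess was larger for CpG-rich sequence. A 400 bp window around the midpoint was called CpG-rich when its GC content was at least 50% and its ratio of observed to expected CpG at least 0.6. Such windows made up 267 (7.93%, 7.04% to 8.89%) of the replicate 1-only peaks and 164 (2.63%, 2.25% to 3.06%) of the shared peaks (odds ratio 3.18, Fisher's exact test, adjusted p = 5.26e-30). In flanking windows at a distance of 5 kb and clear of any peak, the share was 1.03% for replicate 1-only and 0.999% for shared peaks. The Mantel-Haenszel odds ratio over score bins was 4.20 (3.07 to 5.74). Outside promoter windows, a split added after these data were seen, the share was 1.92% against 0.935% and the odds ratio 2.08 (adjusted p = 6.83e-04 in the same exact test), or 4.41 within score bins.

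**Figure D2:**
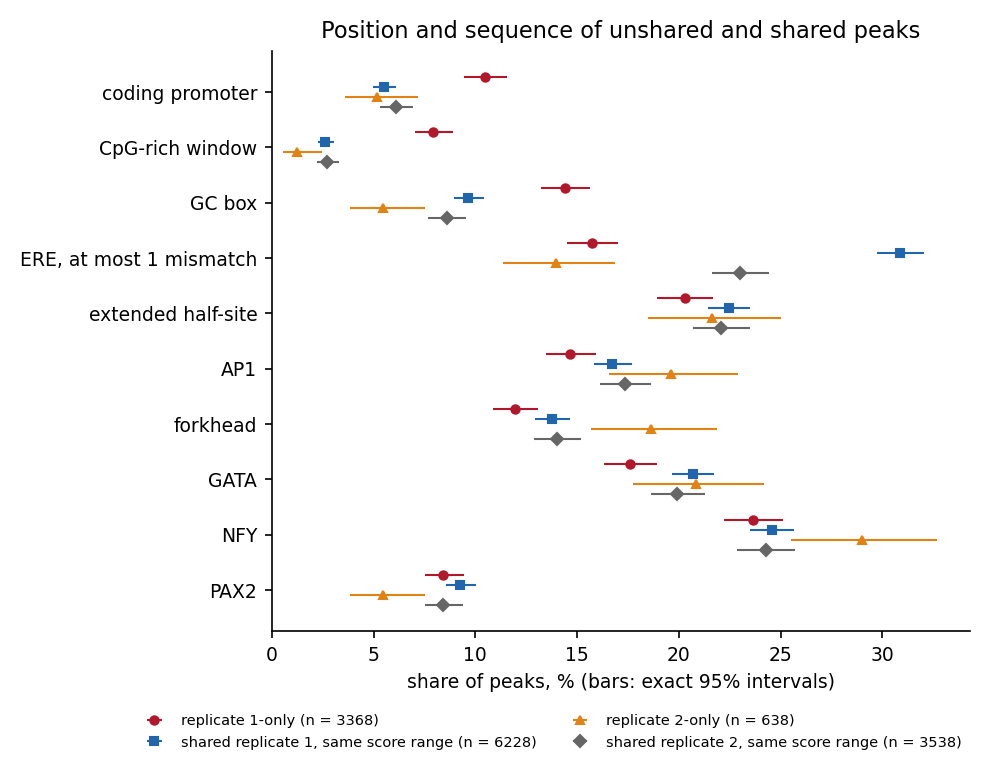
Share of peaks (x axis, %, with exact 95% intervals) in a coding promoter, with a CpG-rich 400 bp window or with a motif in that window (y axis), for replicate 1-only peaks (red), shared replicate 1 peaks in the same score range (blue), replicate 2-only peaks (orange) and shared replicate 2 peaks in the same score range (grey). Replicate 1-only peaks stand at 10.5% for promoters, 7.93% for CpG-rich windows and 15.7% for the ERE.

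Split by score, the CpG-rich share of replicate 1-only peaks was 9.25% from 80 to 90, 6.93% from 90 to 100, 7.85% from 100 to 120, 7.58% from 120 to 150, 7.03% from 150 to 200 and 8.73% from 200 to 300. The shared peaks stood at 0.493% (1 of 203, 0.0125% to 2.71%), 2.87%, 2.18%, 1.62%, 2.42% and 2.34% in the same bins. The promoter share of replicate 1-only peaks was 12.4% in the lowest bin, 8.87% from 120 to 150 and 9.52% from 200 to 300, where that of shared peaks was 4.93%, 6.02% and 5.08%. The bin from 300 upward held 7 replicate 1-only peaks, too few for a share.

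**Figure D3:**
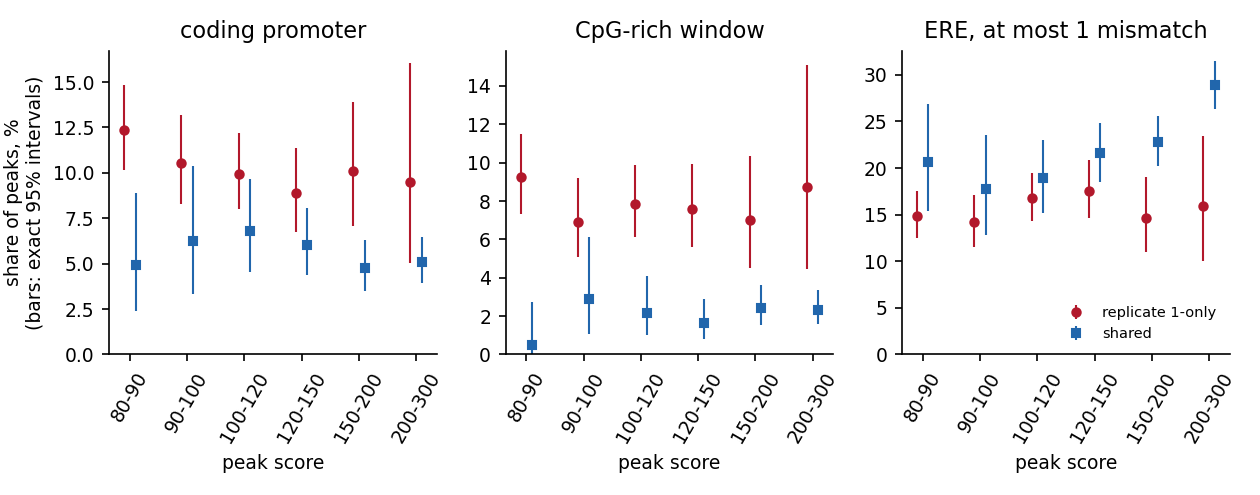
Share of peaks (y axis, %, with exact 95% intervals) in a coding promoter (left), with a CpG-rich window (middle) and with an ERE of up to 1 mismatch (right) by score bin (x axis) for replicate 1-only (red) and shared peaks (blue). The CpG-rich share of replicate 1-only peaks lies above that of shared peaks in each bin shown, for example at 6.93% against 2.87% between 90 and 100.

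Promoter and CpG-rich calls fell in part on the same peaks. Of the 352 replicate 1-only promoter peaks, 209 (59.4%, 54.0% to 64.5%) were CpG-rich, against 109 of 344 (31.7%, 26.8% to 36.9%) shared promoter peaks. For comparison, 47.9% of the 400 bp windows at the most 5′ TSS of the 22350 protein-coding genes were CpG-rich by the same criterion. An ERE with up to 1 mismatch was found in 13 of the 209 CpG-rich promoter peaks without a partner (6.22%, 3.35% to 10.4%) and in 38 of the 109 shared ones (34.9%, 26.0% to 44.6%). Across all coding promoters the share of windows with such an ERE was 1.18%. A GC box was present in 78.5% (72.3% to 83.8%) of these replicate 1-only promoter windows and in 72.5% (63.1% to 80.6%) of the shared ones. The subgroup was singled out after the overall shares were known, so its values are given without a test.

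Read the other way, 65.7% (60.2% to 70.9%) of the 318 CpG-rich promoter peaks of replicate 1 had no replicate 2 partner. The unshared share was 37.8% (32.9% to 42.9%) of the 378 other promoter peaks, 51.3% (41.7% to 60.8%) of the 113 CpG-rich peaks outside promoters and 33.7% (32.7% to 34.7%) of the 8789 peaks that were neither. Of the peaks with an ERE of up to 1 mismatch, 21.6% were replicate 1-only, against 39.7% (38.6% to 40.9%) of those without.

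**Figure D4:**
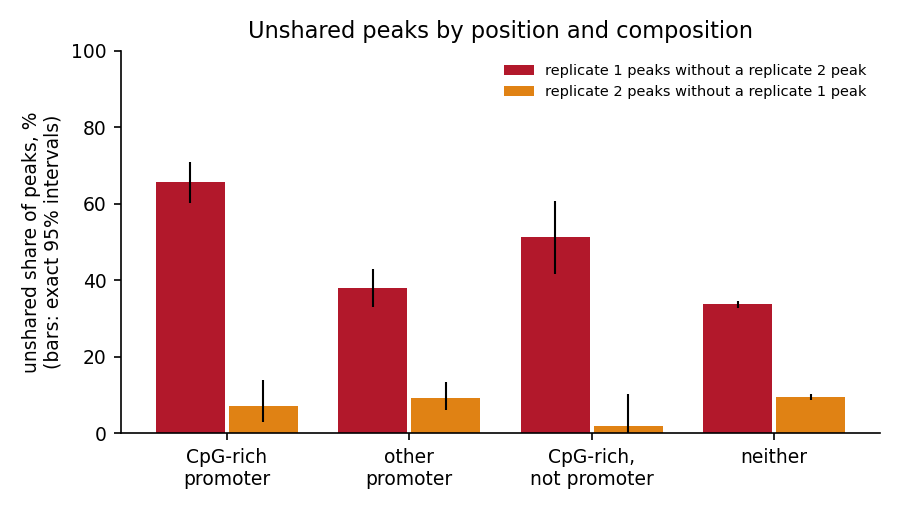
Share of peaks without a partner in the other list (y axis, %, with exact 95% intervals) by position and composition (x axis), for replicate 1 (red) and replicate 2 (orange). In replicate 1 the share is 65.7% for CpG-rich promoters and 33.7% for peaks that are neither promoter nor CpG-rich, and in replicate 2 it is 7.07% and 9.46%.

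By score, the leading replicate 1-only promoter peaks included both kinds of promoter. The highest was in an intron of Frmd4b on chromosome 6 (97259130 to 97259654, score 336), at -713 bp from the nearest TSS, with a GC content of 50.2% and no ERE. A peak over the 5′ end of Isca1, which acts in iron-sulfur cluster assembly, scored 293 (chromosome 13, 59870490 to 59871843). Its midpoint lay in the UTR, 5 bp from the TSS, and its window was CpG-rich with a GC box, an AP1 match and an NRF1 match. The peak at Hagh, a glyoxalase, was likewise CpG-rich with a GC box and had its midpoint at -21 bp from the TSS (chromosome 17, 24987258 to 24988087, score 220).
The peaks at Fgf2, a fibroblast growth factor (score 282, UTR), Ece1, an endothelin-converting enzyme (score 250, intergenic), and Map3k6, a kinase of MAP kinase cascades (score 226, intergenic), were not CpG-rich. Neither were those at Phyhd1 (score 235, in an intron of Lrrc8a) and the septin gene Sept4 (score 213, in coding sequence). The window of none of these 8 promoter peaks held an ERE with up to 1 mismatch. Their nearest replicate 2 peaks lay between 4864 bp (Ece1) and 162242 bp (Sept4) away.

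The ERE was searched on both strands of the 400 bp windows as GGTCA, 3 free bases and TGACC, with up to 1 mismatch in the 10 fixed bases. A match is a description of the sequence and does not show binding to it. Of the replicate 1-only windows, 530 (15.7%, 14.5% to 17.0%) held a match, against 1922 (30.9%, 29.7% to 32.0%) of the shared windows (odds ratio 0.42, Fisher's exact test, adjusted p = 6.40e-61). Both shares were above those of flanking windows, which were 1.28% and 1.08%. An ERE without mismatch was found in 66 of 3368 (1.52% to 2.49%) against 407 (6.54%, 5.93% to 7.18%), with an odds ratio of 0.29 (adjusted p = 2.22e-25 in the same exact test).

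The size of the ERE difference depended on the scores compared. Within score bins the Mantel-Haenszel odds ratio was 0.70 (0.60 to 0.80) for the ERE with up to 1 mismatch and 0.49 (0.35 to 0.69) without mismatch. Since 1 peak at 3100 set the upper end of the range, the comparison was repeated without it, against the 4260 shared peaks scoring up to 383. The shared ERE share was then 24.6%, and the odds ratios were 0.57 with up to 1 mismatch and 0.45 without mismatch. The promoter and CpG-rich odds ratios were 1.94 and 3.24. From score bin to score bin the ERE share of replicate 1-only peaks stayed between 14.2% and 17.6% below a score of 300, whereas that of shared peaks was 20.7% between 80 and 90, 17.7% between 90 and 100, 18.9% between 100 and 120 and 28.9% between 200 and 300.

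The highest-scoring replicate 1-only peaks with an ERE without mismatch lay near genes of several functions. The peak of the Capn8 element printed above scored 289 (chromosome 1, 184493688 to 184494211), with its midpoint at -1189 bp from the TSS of this calpain protease gene. The peak in Srxn1, a sulfiredoxin, scored 206 and that in Nfe2l2, a transcription factor of the antioxidant response, scored 182. The peaks in Sema4a, a semaphorin, and Flt1, a VEGF receptor, scored 189 and 187. Another, with Hspb9 nearest and in a UTR of Rab5c, scored 192 (chromosome 11, 100576510 to 100577078), and its sequence is not shown. None of these 6 peaks lay within 20 kb of a replicate 2 peak, the shortest gap being 24301 bp at Srxn1.

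Of the other motifs, the GC box GGGCGG was found in 14.4% of replicate 1-only and 9.65% of shared windows (odds ratio 1.58, adjusted p = 1.69e-11, Fisher's exact test), against 5.89% of the flanks of replicate 1-only peaks. Within score bins the Mantel-Haenszel odds ratio of the GC box was 2.17 (1.81 to 2.61). Outside promoter windows, the shares were 9.48% and 8.17% and the difference did not pass the threshold in Fisher's exact test (adjusted p = 0.122), whereas it did within score bins (Mantel-Haenszel odds ratio 1.72). The ETS sequence CCGGAAG (2.97% against 2.25%), the NRF1 palindrome (1.40% against 0.642%) and the CTCF core (0.772% against 0.417%) were also more frequent, with adjusted p-values of 0.0477, 9.67e-04 and 0.0441 in the exact tests, and their odds ratios within score bins were 1.76, 1.58 and 2.92. Outside promoters none of these 3 motifs passed the threshold. The ETS and CTCF calls also ended with a reciprocal overlap of 50% required for sharing, at scores of at least 100 and in whole peaks, the CTCF call in 200 bp windows and the NRF1 call within score bins.

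Motifs of factors often found beside ERα at enhancers were somewhat less frequent in replicate 1-only windows. The GATA sequence AGATAA was found in 17.6% against 20.7% (adjusted p = 7.00e-04, Fisher's exact tests here and below), AP1 TGACTCA in 14.7% against 16.7% (adjusted p = 0.0184) and the forkhead sequences TGTTTAC or TATTTAC in 11.9% against 13.8% (adjusted p = 0.0213). The extended half-site AAGGTCA was found in 20.3% against 22.5% (adjusted p = 0.0233 in the exact test), a difference that did not pass the threshold within score bins (0.306). The AP1 and half-site calls also ended in 200 bp windows, at scores of at least 100 and outside promoters, the forkhead call outside promoters, and the GATA call outside promoters within score bins. In that last setting the AP1 and forkhead calls held (odds ratios 0.82 and 0.81). In the flanking windows of replicate 1-only peaks the shares were 19.8% for GATA, 7.39% for AP1, 11.3% for forkhead and 7.44% for the half-site. AP1 and the half-site were thus more frequent in these peaks than beside them, whereas the GATA and forkhead shares lay near those of the flanks, differences that were not tested.
The remaining motifs gave no detectable difference in the 400 bp windows. They were PAX2 GTCACG (8.43% against 9.26%, difference from -1.99 to 0.374 percentage points), NFY ACCAAT or GCCAAT (23.6% against 24.6%, from -2.72 to 0.856), TEAD ACATTCC (7.99% against 9.09%, from -2.24 to 0.0839), RUNX TGTGGTT (8.73% against 9.46%, from -1.91 to 0.494) and the progesterone or glucocorticoid response element (2.82% against 2.63%, from -0.476 to 0.905). In whole peaks, which are wider in the shared group, PAX2, NFY, TEAD and RUNX fell below the shared peaks (odds ratios 0.86, 0.76, 0.65 and 0.67) and passed the threshold.

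The unshared peaks of the other library differed from these in some measures and not in others. Replicate 2 had 638 peaks that overlapped no replicate 1 peak, and 8 of them were CpG-rich (1.25%, 0.543% to 2.46%), against 7.93% of replicate 1-only peaks (odds ratio 6.78, two-sided Fisher's exact test, adjusted p = 2.25e-11). The promoter share was 5.17% against 10.5% (odds ratio 2.14, adjusted p = 5.80e-05 in the exact test), and the GC box share 5.49% against 14.4% (2.90, adjusted p = 2.90e-10 in the exact test). In exact tests, forkhead sequences were more frequent in replicate 2-only peaks, at 18.7% against 11.9% (adjusted p = 4.96e-05), as were NFY sequences, at 29.0% against 23.6% (adjusted p = 0.0138), and AP1, at 19.6% against 14.7% (adjusted p = 0.00772). PAX2 was less frequent there, at 5.49% against 8.43% (adjusted p = 0.0257, exact test). The median GC content of the 400 bp windows was 49.25% in replicate 1-only and 45.5% in replicate 2-only peaks. It was 48% in the shared peaks of either replicate in the same score range. How far base composition accounts for these motif and CpG differences was not tested. The ERE share did not differ detectably, at 13.9% against 15.7% (exact test, adjusted p = 0.436, difference for replicate 1-only minus replicate 2-only from -1.35 to 4.57 percentage points). Limiting the replicate 1-only peaks to the 3256 that scored no higher than the highest replicate 2-only peak, at 206, left the CpG-rich share at 7.95%. Scores of separate libraries are not on a common scale.

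Among the 10 highest-scoring replicate 1-only peaks, the one at 3100 also stood out by its width of 6082 bp. It lay on chromosome 17 from 39979750 to 39985831, over the annotated pseudogene AY036118 and outside protein-coding genes, with a GC content of 73.8% around its midpoint. Its nearest replicate 2 peak was 2666386 bp away.
The others scored from 292 to 383. Of these, 4 were intergenic with Slc38a10 (score 383), Dmrt2 (363, 234312 bp away), Inf2 (349) and Alox5ap (292) as the nearest coding genes, and 4 lay in introns, of Frmd4b (336), Tbc1d1 (318), Ccdc3 (309) and Filip1l (297). The remaining one was the promoter peak of Isca1. An ERE with up to 1 mismatch was found only at Inf2, an actin-regulating formin gene, at -6580 bp from the TSS. The windows at AY036118, Filip1l, Isca1 and Alox5ap were CpG-rich, each with a GC box.

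Distances to shared peaks follow from the rule in part and are given without a test. The gap from a replicate 1-only peak to the nearest shared replicate 1 peak had a median of 47888 bp, and 171 peaks (5.08%) lay within 1 kb, 787 (23.4%) within 10 kb and 64.8% within 100 kb. Counting gaps of up to 1 kb between replicates as shared, a setting added after these data were seen, left 19.2% within 10 kb. For the shared peaks in the same score range, the median gap to the nearest other shared peak was 31634 bp, with 30.8% within 10 kb. Below a score of 120 the medians were 49359 bp for replicate 1-only and 41744 bp for shared peaks. Promoter peaks without a partner were more isolated, with a median of 76337 bp, and those in CpG-rich promoters had a median of 103281 bp, with 25 of 209 within 10 kb. Outside promoters the median was 45684 bp.

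**Figure D5:**
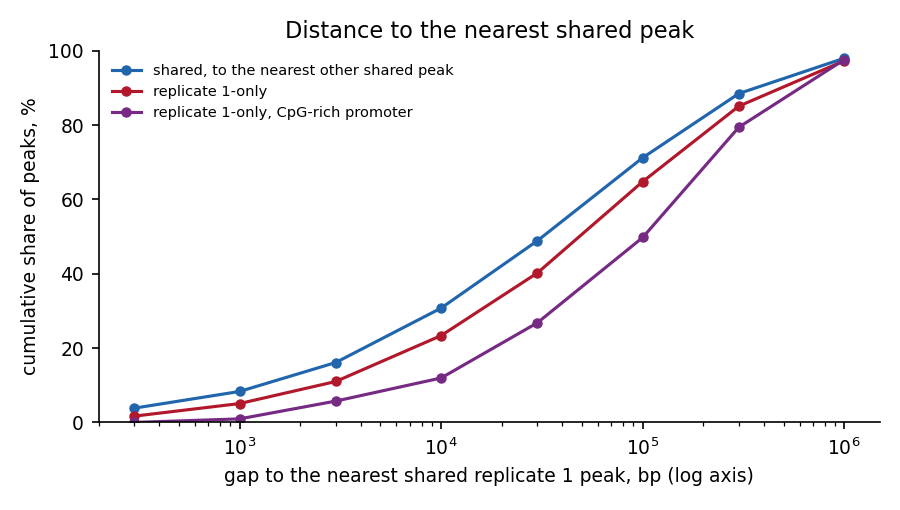
Cumulative share of peaks (y axis, %) by gap to the nearest shared replicate 1 peak (x axis, bp, log scale) for shared peaks in the same score range (blue), replicate 1-only peaks (red) and replicate 1-only peaks in CpG-rich promoters (purple). At 10000 bp the shares are 30.8% and 23.4% for the first 2 groups, and 25 of the 209 peaks in CpG-rich promoters lie that close.

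Exonic midpoints were more frequent among replicate 1-only peaks, a difference that was not tested or split by promoter. Of the replicate 1-only midpoints, 50.4% were intergenic, 43.4% intronic and 6.15% (207 peaks) exonic with respect to protein-coding genes, against 53.4%, 42.9% and 3.76% (234 peaks). By distance, 32.3% were upstream of the promoter window and within 100 kb, 39.9% were downstream of it and 17.4% lay beyond 100 kb, against 33.0%, 42.5% and 18.9%. Between chromosomes, the unshared share of replicate 1 peaks ran from 30.8% (26.1% to 35.8%) on chromosome 16 to 45.1% (35.2% to 55.3%) on chromosome X, which held 102 peaks.

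For 2783 replicate 1-only peaks (82.6%) a TSS of a protein-coding gene lay within 100 kb, and the nearest ones belonged to 2192 genes. These were 9.81% of the 22350 protein-coding genes, and 3153 genes (14.1%) were nearest to a shared peak. Of the 2192 genes, 972 were also nearest to a shared peak and 1220 (55.7%) were reached by replicate 1-only peaks alone. A replicate 1-only peak lay in the promoter window of 344 genes (1.54%), of which 109 had a shared peak nearest to them as well. Most genes had few such peaks: 1758 had 1, 320 had 2 and 114 had 3 or more.

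The highest number was 6 peaks, at Cmklr1, Odz4, Plin4, Slc16a1 and Zmiz1. At Plin4, which codes for a lipid droplet coat protein, the 6 replicate 1-only peaks scored from 89.4 to 270 beside 2 shared peaks. Of these, 3 had their midpoint in coding sequence, 1 in a UTR, 1 in an intron and 1 upstream of the gene, at -925 bp from the TSS and 98 bp from a replicate 2 peak. Slc16a1, a monocarboxylate transporter gene, had 1 shared peak, and its replicate 1-only peaks scored from 84.6 to 163, with 1 of them in a CpG-rich intronic window, 297 bp downstream of the TSS. Cmklr1, the chemerin receptor gene, and the teneurin gene Odz4 had 5 and 8 shared peaks. Zmiz1, a coregulator of nuclear receptors, had 16, and 4 of its 6 replicate 1-only peaks lay next to a replicate 2 peak, with gaps of 1, 22, 498 and 595 bp.

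Of the 19 genes that the study followed individually, 7 were nearest to a replicate 1-only peak (36.8%) and 12 to a shared peak (63.2%), against 9.81% and 14.1% of all protein-coding genes. Among them, a single replicate 1-only peak was nearest to Krt4 (score 185), Heyl (115), Fos (115), Cdh1 (103) and Gata6 (84.2), and 2 to Errfi1 (highest score 119). Cdh1, which codes for the epithelial adhesion protein E-cadherin, was the only one of the 7 with 0 shared peaks (55.7% of all genes reached had none), and its peak lay in its own intron, 13327 bp downstream of the nearest TSS. Fos had 4 shared peaks nearest to it and Errfi1, an inhibitor of EGF receptor signalling, had 9. No replicate 1-only peak was nearest to Areg, Bmp8a, Ccnd1, Csf1, Foxa1, Gata3, Greb1, Krt18, Krt7, Krt8, Muc1 or Pgr, and of these Areg, Bmp8a, Csf1, Gata3, Greb1 and Pgr had a shared peak.

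Among 22 coregulator genes of the estrogen receptor, 8 were nearest to a replicate 1-only peak (36.4%, against 9.81% of all protein-coding genes), 4 of them without a shared peak (55.7% of all genes reached had none), and 7 were nearest to a shared peak (31.8%, against 14.1%). The corepressor gene Nrip1 (score 157) and the acetyltransferase gene Kat2b (score 133) had 1 each and also shared peaks, and Ppargc1a, a metabolic coactivator, had 1 (score 132) and no shared peak.
Of 20 immediate early and AP1 genes, 9 were nearest to a replicate 1-only peak and 10 to a shared peak, again beside 9.81% and 14.1% of all protein-coding genes. Of the 9, 5 had no shared peak, close to the 55.7% of all genes reached. A replicate 1-only peak lay in the promoter window of 3 of the 20 listed genes, against 1.54% of all protein-coding genes. The peaks with the highest score at Fosl2 (196), Atf3 (156) and Jund (126), all of which code for bZIP transcription factors, were in CpG-rich windows with a GC box, at -752, -212 and -189 bp from the TSS, whereas the peak of Egr2 (116) lay at -23925 bp.

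Lists of cell type markers differed in their counts, which were not tested and stand beside 9.81% of all protein-coding genes for replicate 1-only and 14.1% for shared peaks. Of 16 markers of hormone-sensing luminal cells, 3 were nearest to a replicate 1-only peak and 11 to a shared one. The 3 were Prom1 (score 152), Xbp1 (127) and Esr1 (120), and each also had a shared peak, unlike 55.7% of all genes reached. Of 15 luminal progenitor and alveolar markers, 1 was reached, Stat5a, through a promoter peak of score 142, and 4 had shared peaks. Of 14 basal and myoepithelial markers, 5 had replicate 1-only and 4 had shared peaks, with Trp63 (212), Cdh3 (151), Oxtr (131) and Mylk (112) in front.
Adipocyte markers showed the highest share of these lists, 11 of 19 (57.9%) against 8 (42.1%) with a shared peak, led by Plin4 (270), Lpl (161), Ucp1 (161) and Lpin1 (154), and 4 of the 11 had no shared peak, below the 55.7% of all genes reached. Fibroblast and stromal markers gave 3 of 16, Mmp2 (230), Thy1 (113) and Dcn (85), against 7 with a shared peak. Endothelial markers gave 3 of 13, Flt1 (187), Kdr (91.2) and Emcn (80.8), against 6. Among 17 immune cell markers, Csf1r (137) alone was reached, and 1 had a shared peak, and of 12 skeletal muscle markers 0 were reached by a replicate 1-only and 1 by a shared peak. The part of each cell type in these peaks was not tested.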

How the data were processed

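The ERα peak lists of the 2 ChIP replicates were used. Per the study's methods and the submitters' notes, reads were aligned to mm9 with BWA and MACS called the peaks of each replicate relative to input with a cutoff of 1e-08. Versions of BWA and MACS and the overlap minimum of the authors are not given in the sources used here. The deposited score, -10 log10 of the p-value, was used as the authors gave it. Coordinates are 1-based on NCBIM37, whose chromosomes contain all peaks used, and genes are those of GENCODE version M1. Peaks on unplaced sequences, 9 in replicate 1 and 7 in replicate 2, were left out. Shares were compared by two-sided Fisher's exact tests with Benjamini-Hochberg adjustment over 17 measures (promoter, CpG-rich and 15 motifs), with Mantel-Haenszel odds ratios over 7 score bins, and effects of the 2 replicates by the ratio of their odds ratios. Intervals of shares are exact Clopper-Pearson 95% intervals and those of differences Newcombe's. The peaks named are the 10 with the highest score, the highest 6 with an ERE without mismatch and the highest 8 in promoters, peaks next to the overlap limit (3 on each side), the 5 genes with the most peaks, up to 4 genes of each marker list, and genes the study followed. The members, lists and tests were chosen with earlier results of these data known. Overlap, TSS assignment, motif search and stratified tests were checked on simulated data. Alternatives were other overlap rules, stricter scores, other TSS sets, windows and mismatch limits. The scripts ran in Python 3.11.15 with pandas 2.3.3, numpy 2.4.6, pysam 0.24.0, scipy 1.17.1, matplotlib 3.10.9 and statsmodels 0.14.6.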

Additional observations from a re-analysis of the deposited data

Results flagged for a closer look

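The effect of being unshared differed between the replicates for 6 of the 17 measures, by a test of the ratio of the odds ratios (unshared against shared peaks in the same score range) with adjustment over the measures (z test, n = 3368 and n = 638 unshared peaks). The odds ratio for a CpG-rich window was 3.18 in replicate 1 and 0.46 in replicate 2, a ratio of 6.99 (n = 3368 and n = 638, 95% interval 3.36 to 14.6, adjusted p = 3.49e-06). For the GC box the ratio was 2.55 (n = 638 replicate 2-only peaks, 1.74 to 3.73, adjusted p = 1.19e-05) and for promoters it was 2.38 (1.59 to 3.57, adjusted p = 1.53e-04). The ratios for forkhead sequences (0.603, adjusted p = 3.99e-04), NFY sequences (0.745, adjusted p = 0.0220) and AP1 (0.737, adjusted p = 0.0398) lay below 1 (n = 638). These odds ratios were not split by score, and the shared groups were unlike. Replicate 1 had 6228 shared peaks with a median score of 246, and replicate 2 had 3538 with a median of 123. The z test also treats the 2 comparisons as independent, although the shared peaks of both lists lie at overlapping sites. Its p-values are therefore approximate. With 1 library on each side, libraries and animals cannot be told apart.

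Outside the chromosomes compared, replicate 1 had 9 peaks on unplaced sequences, of which 2 overlapped no replicate 2 peak. They were not annotated here.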

How the results depend on the processing

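The odds ratios for promoters (1.78 to 2.51 over 9 alternatives), CpG-rich windows (2.08 to 4.41 over 9) and the ERE (0.404 to 0.739 over 10) kept their direction and their side of the threshold. That of the GC box lost significance in peaks outside promoter windows, at 1.18. Replicate 1-only peaks numbered 1933 at a score of at least 100 and 133 at a score of at least 200. The number of motifs past the threshold, 10 of 15, was 6 at a score of at least 100, 3 outside promoter windows and 5 there with score bins. With gaps of up to 1 kb counted as shared, 19.2% of replicate 1-only peaks lay within 10 kb of a shared peak. Odds ratios crossed 1 for PAX2 with score bins (1.05) and without the highest-scoring peak (1.01), for ETS outside promoter windows (0.912), for NRF1 there with score bins (0.821), and in whole peaks for the CTCF core (0.977) and the progesterone or glucocorticoid response element (0.848). None of these passed the threshold, and the cause was not tested. The settings outside promoter windows or without the highest-scoring peak, and other overlap or score settings for the distances and score-binned counts, were chosen after seeing the data. The repeat share was not run because the reference is not soft-masked. Leaving out a replicate was not possible because both define the peaks. No paired analysis was possible because all ChIP samples had the same treatment. Read depth is not in the lists, and its part in the results was not tested.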

Other observations

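Families of genes with a common symbol were counted in the same way. Ribosomal protein genes were nearest to a replicate 1-only peak in 18 of 95 cases (18.9%), above the 9.81% of all protein-coding genes, and 13 of the 18 had no shared peak, beside 55.7% of all genes reached. A peak lay in the promoter window of 14 of the 95, against 1.54% of all protein-coding genes. Solute carrier genes gave 51 of 355 (14.4%), collagen genes 10 of 44 (22.7%), zinc finger genes of the Zfp series 22 of 371 (5.93%), keratin genes 2 of 46 (4.35%), histone genes 2 of 67 (2.99%) and olfactory receptor genes 6 of 1113 (0.539%). The shares nearest to a shared peak, 14.1% over all protein-coding genes, were 14.7% for ribosomal protein, 19.2% for solute carrier, 40.9% for collagen, 9.16% for Zfp, 17.4% for keratin, 1.49% for histone and 0.988% for olfactory receptor genes. Families were described by counts without a test.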
